A study of Mus musculus with 2 samples.

Results

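Oxidative phosphorylation is carried out by 5 protein complexes of the inner mitochondrial membrane, and their subunits are encoded in 2 genomes. The 36 genes described here are subunits of these complexes, taken as a list of names from the 31253 genes in the count tables. Of them, 23 are nuclear genes and 13 lie on the mitochondrial chromosome, carry the prefix mt-, and are all of the mt- genes in the tables. All 36 were found in both libraries and in GENCODE M21. The list was drawn up with earlier results of these data known, so the choice of members supports nothing by itself.

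The libraries came from dissociated whole intestine of 2 mice with the wild-type (WT) genotype, 1 mouse per library. The RA library was made from a mouse with collagen-induced arthritis, a model in which an immune response to collagen inflames the joints, kept on standard chow. The butyrate library was made from a mouse given a 1% butyrate diet. The labels do not say whether that mouse had arthritis as well. Cells were captured in droplets with 3′ chemistry, and each value below starts from unique molecular identifiers (UMIs), the barcoded copies that stand for single captured transcripts. With 1 mouse per group there is no replicate and no test, so a difference between the libraries cannot be told apart from a difference between 2 mice or 2 preparations. Intervals are 95% intervals that cover counting error only.

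Complexes I and II pass electrons from NADH and succinate to ubiquinone, complex III passes them on to cytochrome c, and complex IV hands them to oxygen. Complexes I, III and IV pump protons across the membrane, and complex V, the ATP synthase, lets them back to make ATP. The mitochondrial chromosome encodes core membrane subunits of complexes I, III, IV and V, and all of complex II is nuclear. Colonocytes, the absorptive cells of the colon, are known to oxidise butyrate from bacterial fermentation as a main fuel, which ends in this chain.

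The mt- members are read from a short circular chromosome with almost no space between genes, which bears on how their UMIs can be assigned. In GENCODE M21 (GRCm38), mt-Atp8 and mt-Atp6, which encode 2 membrane subunits of complex V, share 43 bases at chrM:7927-7969 on the + strand. Mt-Nd4l and mt-Nd4 share 7 bases, mt-Co3 and mt-Atp6 share 1 base, and mt-Nd5 and mt-Nd6 overlap by 14 bases on opposite strands. The whole of mt-Atp8 (chrM:7766-7969) and the first 120 bases of mt-Atp6 (chrM:7927-8046) are shown 5′ to 3′, with the shared bases in capitals, because a UMI from this stretch fits both genes. The cell's transcript carries both genes in 1 molecule, so UMIs listed under either name need not stand for separate transcripts.
mt-Atp8: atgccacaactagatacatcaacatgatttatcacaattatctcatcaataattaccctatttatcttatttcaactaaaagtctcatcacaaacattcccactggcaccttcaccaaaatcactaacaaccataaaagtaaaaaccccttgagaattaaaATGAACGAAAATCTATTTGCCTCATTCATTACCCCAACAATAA
mt-Atp6: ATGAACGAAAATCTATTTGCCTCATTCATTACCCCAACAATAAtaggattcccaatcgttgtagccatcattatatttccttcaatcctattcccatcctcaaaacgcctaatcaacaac
A nuclear copy complicates mt-Atp6 further. The transcript of Gm10925, annotated in the nuclear genome, was identical to mt-Atp6 over 678 of 678 bases compared, and Gm10925 is not among the genes of the count tables used here. Values of mt-Atp6 and mt-Atp8 are therefore uncertain as measures of the single genes.

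Promoters were read for the nuclear members because in 1 of the cell classes described below their ratios between the libraries all lay below 1. RefSeq promoters (GRCm38.p6) were matched for 17 of the 23 nuclear members, and the 250 bases before the start were searched on both strands. The motif of NRF1, a factor known to bind promoters of respiratory chain genes, was searched as GCGC, any 1 base, and TGCGC. It was found in 3 of 17 member promoters (Ndufs6, Sdha and Sdhd) and in 3.74% of 32851 promoters. The core ETS motif CCGGAAG, bound by GABP among others, was found in 3 of 17 (Atp5e, Sdhd and Uqcrh) and in 6.91% of all. The YY1 motif AAGATGGC and the oestrogen-related receptor motif AAGGTCA were found in 0 of 17 members, against 1.56% and 4.08% of all promoters. Motif matches overlap no other match in the promoters shown. Sdha is shown for its 3 NRF1 matches (chr13:74350241-74350490, - strand), and Sdhd for 1 NRF1 and 1 ETS match (chr9:50603850-50604099, - strand). Ndufa4 is shown because its distribution over cell classes differed from that of the other nuclear members (chr6:11907451-11907700, - strand). Capitals mark the matches, and these letters describe the windows without showing that a factor binds there.
Sdha: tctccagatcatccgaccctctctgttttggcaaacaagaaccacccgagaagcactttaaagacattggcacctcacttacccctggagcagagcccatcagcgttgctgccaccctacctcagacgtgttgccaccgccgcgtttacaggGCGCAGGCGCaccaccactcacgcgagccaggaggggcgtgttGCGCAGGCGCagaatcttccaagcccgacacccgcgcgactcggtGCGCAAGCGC
Sdhd: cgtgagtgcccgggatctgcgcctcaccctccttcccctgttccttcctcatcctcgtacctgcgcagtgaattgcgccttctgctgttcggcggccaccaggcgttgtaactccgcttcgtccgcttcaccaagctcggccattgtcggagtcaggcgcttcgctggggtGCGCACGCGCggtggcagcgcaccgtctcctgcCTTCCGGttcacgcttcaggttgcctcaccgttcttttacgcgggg
Ndufa4: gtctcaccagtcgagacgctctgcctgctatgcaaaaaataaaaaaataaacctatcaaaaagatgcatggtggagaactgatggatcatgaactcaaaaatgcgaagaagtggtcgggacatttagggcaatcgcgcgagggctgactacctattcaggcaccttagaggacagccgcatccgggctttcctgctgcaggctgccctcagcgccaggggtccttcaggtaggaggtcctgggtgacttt

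Cell classes were set by marker UMIs in each barcode, with at least 500 UMIs and 250 genes and at most 25% of UMIs from mt- genes. Epcam cells held at least 1 UMI of Epcam, an adhesion protein of epithelial cells. Within them, Aqp8 cells held at least 3 UMIs of the colonocyte water channel Aqp8, and Muc2 cells at least 10 UMIs of the goblet cell mucin Muc2. Lymphocytes were taken as Cd79a cells (B lineage, at least 1 UMI) and Cd3e cells (T lineage, at least 1 UMI). C1q cells had at least 10 UMIs of C1qa, C1qb and C1qc together (macrophages), and Col1a2 cells at least 2 UMIs of this collagen gene (fibroblasts). The kept cells numbered, in the RA and butyrate library, 1694 and 2092 (Epcam), 372 and 579 (Aqp8), 144 and 134 (Muc2), 3533 and 5108 (Cd79a), 743 and 1355 (Cd3e), 130 and 107 (C1q), and 865 and 367 (Col1a2).

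The libraries differed in depth and in mt- content before any class was formed. The RA library held 10140 barcodes and 61912439 UMIs, of which 15.5% were mt-, and the butyrate library 9959 barcodes and 67894477 UMIs, of which 8.77% were mt-. The shallowest RA barcode had 501 UMIs and the shallowest butyrate barcode 2313, and 27 barcodes occurred in both. The 25% limit kept 6909 RA and 8247 butyrate barcodes, and a limit of 10% kept 5913 and 7140. Gates overlapped: 665 of the 1694 RA Epcam cells and 885 of the 2092 butyrate Epcam cells also held a Cd79a UMI, and no doublet caller was run. In all 7 classes all 5 markers of the class's own list were above 0 in both libraries. This does not show that a class is pure, because in RA Epcam cells all markers of the other cells' lists were above 0 too. The 5 colonocyte markers, which include the gate gene Aqp8, summed in Aqp8 cells to 10055 CPM (RA) and 10145 CPM (butyrate). CPM stands for UMIs per 1000000 of the class's UMIs from nuclear genes. The gates also held RNA of other cells. RA Epcam cells held more plasma cell marker RNA (5633 CPM) than epithelial marker RNA (4979 CPM), and butyrate Epcam cells held 2562 and 4458 CPM of these lists. Red cell markers summed to 5056 CPM (RA) and 5760 CPM (butyrate) in Aqp8 cells. In Cd79a cells they summed to 3635 and 3155 CPM, above the B cell markers at 2032 and 2375 CPM.

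Nuclear members together were highest in Aqp8 cells in both libraries. Their summed level there was 17543 CPM (RA) and 14173 (butyrate), against 12422 and 11461 CPM in all Epcam cells and 11263 and 11041 in Muc2 cells. Outside the epithelium the level was lower by a wide margin. It was 5827 and 5637 CPM in Cd79a cells, 6712 and 6374 in Cd3e cells, 5866 and 5101 in C1q cells, and 4790 and 4606 in Col1a2 cells. The summed level was below the RA value in the butyrate library in all 7 classes, and by the most in Aqp8 cells, with a butyrate/RA ratio of 0.808 (interval 0.799 to 0.817). In the other classes the ratio lay between 0.870 (C1q) and 0.980 (Muc2). The median over single cells did not follow the sums in each class. It was higher in the butyrate library in C1q cells (4015 and 4360 CPM) and Cd79a cells (4359 and 4515 CPM), and near equal in Cd3e cells (5272 and 5266 CPM). In Aqp8 cells it was 13520 and 10615 CPM, and in Epcam, Muc2 and Col1a2 cells it was also lower in the butyrate library.

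The mt- members together were also highest in Aqp8 cells, but there the butyrate sum was not the lower one. Of the 13 single members, 9 had a ratio below 1 there. All mt- members together made up 15.3% of all UMIs in RA Aqp8 cells and 15.9% in butyrate Aqp8 cells. In Epcam cells they made up 8.93% and 7.92%, and in Muc2 cells 8.06% and 6.34%. Shares were 4.74% and 3.68% in Cd79a cells, 4.60% and 3.20% in Cd3e cells, 4.07% and 3.02% in C1q cells, and 3.76% and 2.71% in Col1a2 cells. The ratio was thus 1.04 (1.03 to 1.04) in Aqp8 cells and between 0.695 (Cd3e) and 0.887 (Epcam) in the other 6 classes. Because the limit on mt- UMIs acts on these same genes, their summed share is partly set by the limit. Only 26.2% of RA Aqp8 barcodes and 37.7% of butyrate Aqp8 barcodes passed it, and without a limit the ratio in Aqp8 cells turned to 0.929. Under the stricter limit of 10% it was 1.11, from 43 and 64 cells.

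**Figure D1:**
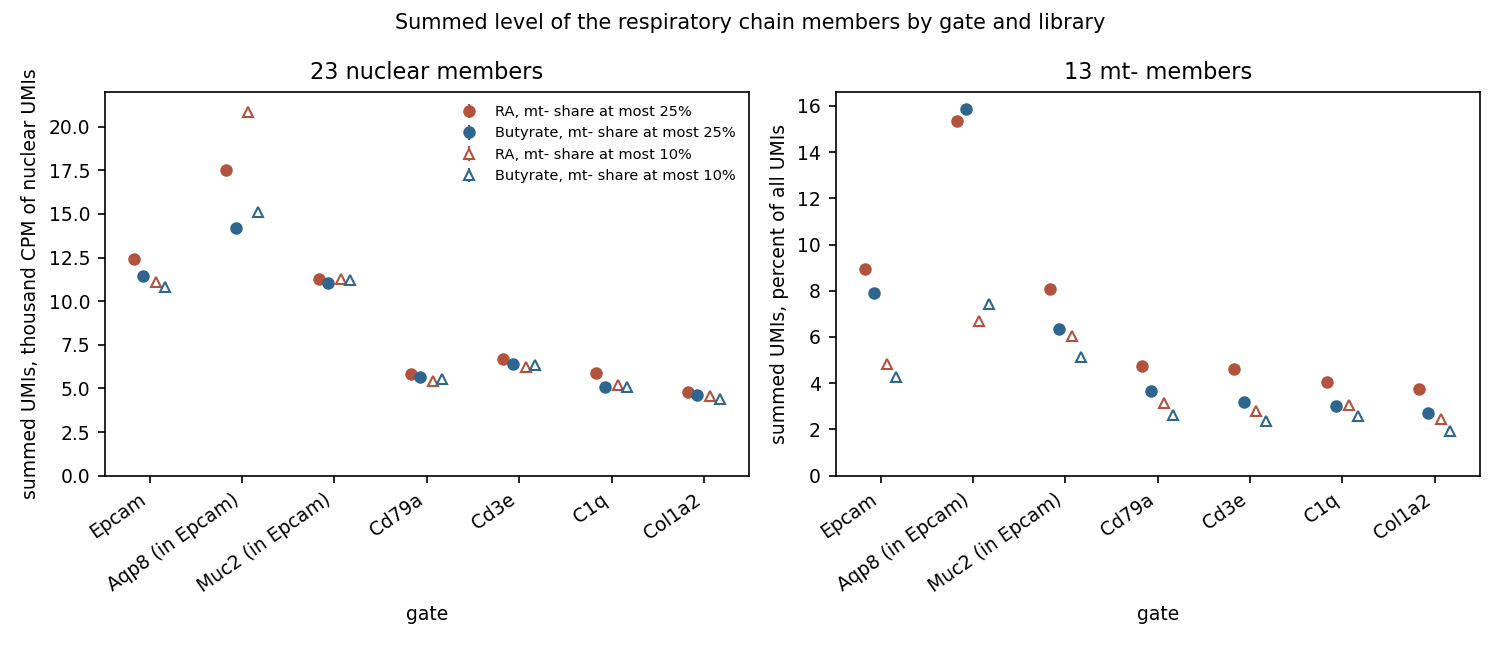
Summed level of the 23 nuclear members (left, CPM of nuclear UMIs) and the 13 mt- members (right, percent of all UMIs) in 7 marker-gated cell classes, with 1 point per library and limit and bars for 95% counting intervals. Nuclear levels in Aqp8 cells are the highest of the 7 classes (17543 CPM in the RA library, 14173 CPM in the butyrate library), and mt- shares in Aqp8 cells (15.3% and 15.9%) lie above those of the other classes.

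Epcam cells gave the deepest counts of the epithelium, so all 36 members are given there, complex by complex, in CPM of nuclear UMIs for nuclear members and in CPM of all UMIs for mt- members. In these cells 22 of 23 nuclear members were lower in the butyrate library, and 0 were at least 25% higher or at least 20% lower there, limits of equal size on a log scale that are used throughout. Among all 14102 genes with at least 50 UMIs in Epcam cells, 11.4% were at least 25% higher and 20.8% at least 20% lower in the butyrate library. The median ratio of the nuclear members was 0.922 against 0.985 for all genes tested, of which 53.2% lay below 1. With at most 10% mt- UMIs, 15 of 23 nuclear members lay below 1 and 8 above it, with a median of 0.974 against 0.987 for all genes tested. Markers of other cells also differed between the Epcam gates: plasma cell markers as given above, fibroblast markers at 892 and 365 CPM, adipocyte markers at 280.02 and 16.0 CPM (Plin1 at 0 in the butyrate gate), and B cell markers at 399.5 and 856 CPM. Their part in the result was not tested.

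Complex I nuclear members belong to the shell around its catalytic core. Ndufa1, a small subunit of the membrane arm, stood at 341 CPM (RA) and 304 CPM (butyrate). Ndufa2, in the matrix arm, stood at 259 and 234 CPM. Ndufa6, which binds an acyl carrier protein, stood at 443 and 413 CPM. All 3 were slightly lower in the butyrate library, with ratios of 0.891, 0.905 and 0.933. In the membrane arm, Ndufb3 stood at 157 and 147 CPM and Ndufb8 at 304 and 282 CPM. Ndufb9, which also binds an acyl carrier protein, stood at 546 and 460 CPM, and its ratio of 0.844 (0.820 to 0.868) was the lowest of the nuclear members. The zinc-binding matrix arm subunit Ndufs6 stood at 226 and 208 CPM.

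The 7 mt-encoded subunits form the core of the complex I membrane arm, and they did not share 1 ratio. Mt-Nd1, next to the quinone site, stood at 4259 CPM (RA) and 3263 (butyrate). Mt-Nd2, of the proton-pumping subunits, stood at 2069 and 1827 CPM. Mt-Nd3 stood at 778 and 497 CPM, the lowest ratio of all 36 members in Epcam cells (0.638, 0.623 to 0.654). The pumping subunits mt-Nd4 and mt-Nd5 stood at 4616 and 4221 and at 927 and 737 CPM. Mt-Nd4l was 1 of 3 mt- members with a ratio above 1, at 294 and 313 CPM. Mt-Nd6, the only member on the opposite strand, stood at 72.0 and 72.6 CPM, with an interval that included 1 (0.938 to 1.08).

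Complex II links the chain to the tricarboxylic acid cycle. Its flavoprotein Sdha stood at 124 CPM (RA) and 119 (butyrate), with an interval that included 1 (0.903 to 1.01). The iron-sulfur subunit Sdhb stood at 150 and 139 CPM, and the membrane anchor Sdhd at 148 and 137 CPM. Complex II thus showed ratios between 0.927 and 0.957.

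Complex III had 3 nuclear members and 1 mt- member. Uqcrc1, a core protein, stood at 119 and 104 CPM. Uqcrq, a small subunit, stood at 419 and 400 CPM, and the hinge protein Uqcrh, which faces cytochrome c, at 949 and 868 CPM. The catalytic subunit mt-Cytb stood at 7142 and 5465 CPM. Its ratio of 0.765 was below those of the 3 nuclear members (0.874 to 0.954).

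Complex IV, cytochrome c oxidase, is the terminal oxidase. Ndufa4, long listed with complex I by name and now counted as a complex IV subunit, stood at 543 and 496 CPM. Cox4i1, the regulatory subunit, stood at 1338 and 1160 CPM. Cox5a stood at 1180 and 1135 CPM. Of the small subunits, Cox6c stood at 1126 and 993 CPM, Cox7b at 571 and 526 CPM, and Cox8a at 1390 and 1338 CPM. All 6 lay between 0.867 and 0.963. The 3 mt- subunits of the catalytic core split: mt-Co1, which holds the haem-copper centre, stood at 11402 and 13176 CPM (1.16, 1.15 to 1.16), mt-Co2, which receives electrons from cytochrome c, at 14265 and 12637 (0.886), and mt-Co3 at 17594 and 13419 (0.763). A higher mt-Co1 in the butyrate library therefore stood beside lower mt-Co2 and mt-Co3 from the same chromosome.

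Complex V makes ATP. Atp5a1 and Atp5b, the alpha and beta subunits of the catalytic head, stood at 535 and 484 CPM and at 602 and 545 CPM. Atp5j, of the stalk that holds the head in place, stood at 356 and 373 CPM, and was the only nuclear member above 1 in Epcam cells (1.05, 1.01 to 1.08). Atp5e, of the rotating stalk, stood at 596 and 593 CPM. The proton channel subunit mt-Atp6 stood at 25515 and 23312 CPM, and mt-Atp8 at 386 and 294 CPM.

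**Figure D2:**
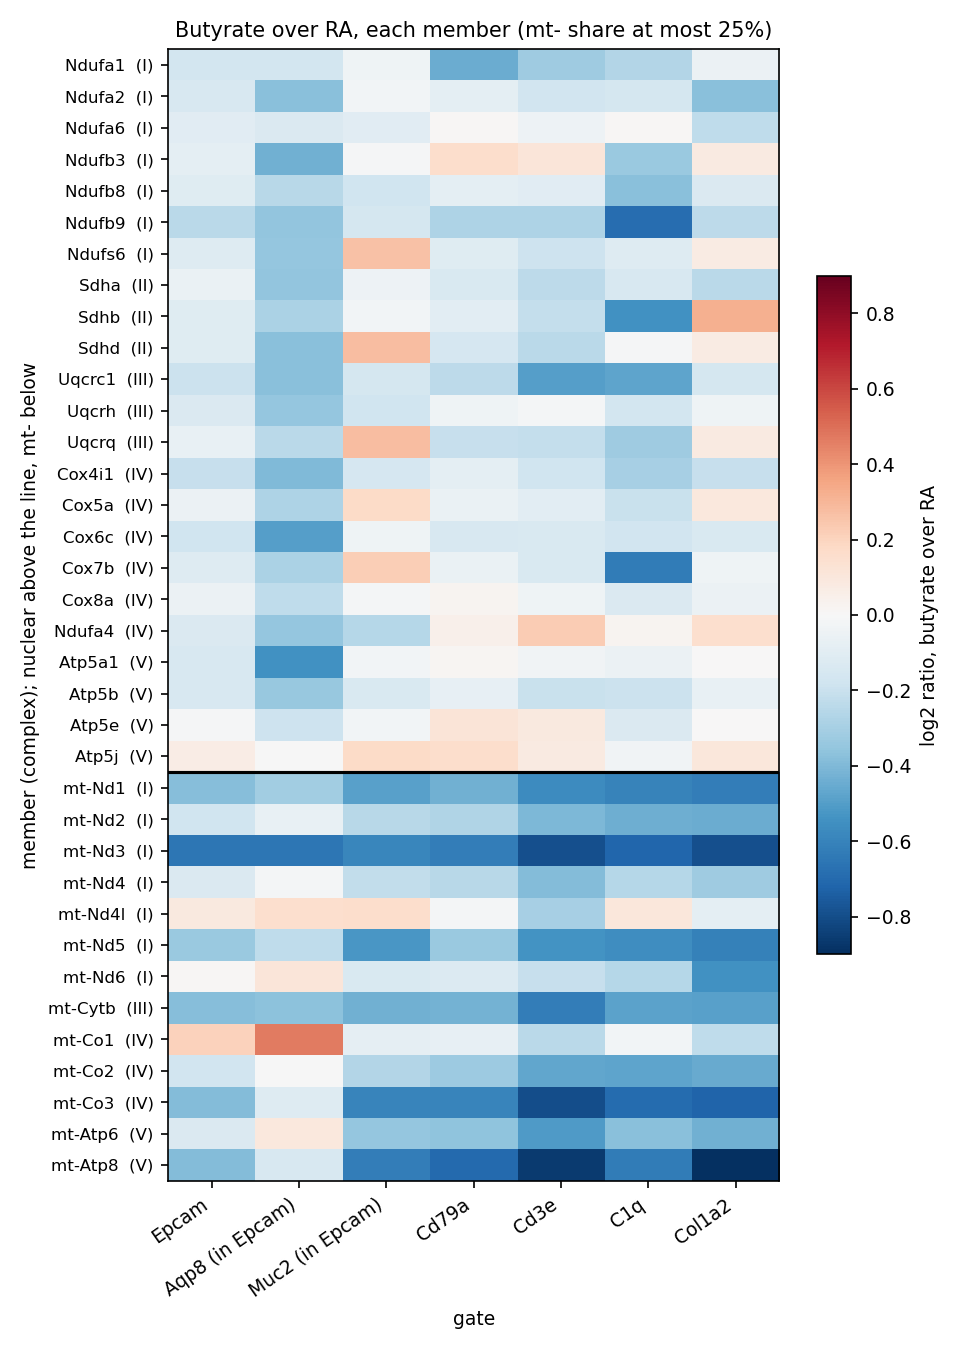
Butyrate/RA ratio of each of the 36 members in the cell classes, shown as colour on a log scale, with nuclear and mt- members apart. In Aqp8 cells all 23 nuclear members lie below 1, between 0.685 (Atp5a1) and 0.997 (Atp5j), while mt-Co1 lies at 1.39.

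The ratios of the nuclear members were lowest in the colonocyte gate. In Aqp8 cells 23 of 23 nuclear members had a ratio below 1, the counting intervals of 22 lay below 1, and 13 were at least 20% lower, with 0 at least 25% higher. Of the 9632 genes tested in these cells, 23.6% were at least 20% lower and 19.0% at least 25% higher. The median ratio was 0.787 for the nuclear members and 0.990 for all genes tested, of which 51.2% lay below 1. All 5 complexes had sums below 1: the summed nuclear level was 3550 CPM (RA) and 2965 CPM (butyrate) for complex I, 517 and 410 for complex II, 2052 and 1647 for complex III, 8985 and 7125 for complex IV, and 2440 and 2026 for complex V. The ratios of these sums lay between 0.793 (complex IV) and 0.835 (complex I).

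Among single members in Aqp8 cells, Atp5a1 had the lowest ratio, at 568 CPM (RA) and 389 CPM (butyrate), with a ratio of 0.685, 0.642 to 0.732. Cox6c stood at 1880 and 1335 CPM (0.710, 0.685 to 0.736). At the other end stood Ndufa6 at 838 and 768 CPM (0.916, 0.871 to 0.962) and Atp5j at 464 and 463 CPM (0.997, 0.934 to 1.06). Atp5a1 and Atp5j thus differed in ratio although both belong to complex V. With at most 10% mt- UMIs, 22 of 23 nuclear members were below 1 and 16 were at least 20% lower. Cox6c was then lowest (0.609) and Ndufa4 highest (1.15), from 43 RA and 64 butyrate cells. With no mt- limit 3 members were at least 20% lower, and with barcodes that passed no other main gate 6 were, although the ratio of the sum stayed below 1 in both (0.836 and 0.835).

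The lower nuclear level in butyrate Aqp8 cells was present at each depth examined. In barcodes with 500 to 4999 UMIs it was 10890 CPM (RA) and 9831 CPM (butyrate). Between 5000 and 9999 UMIs it was 15109 and 13544 CPM, and from 10000 UMIs 18806 and 16069 CPM. In each of these depth ranges the butyrate/RA ratio lay nearer to 1 than the 0.808 of the pooled sum. The part of depth in the pooled ratio was not tested. Deeper barcodes had higher levels in both libraries, and the median depth of Aqp8 cells was 8304 UMIs (RA) and 6084 (butyrate). It was also lower at each level of Aqp8 itself: 15813 and 13145 CPM in cells with 3 to 9 Aqp8 UMIs, 16841 and 13012 CPM with 10 to 29, and 20547 and 17662 CPM with 30 or more. Marker RNA differed between the gates as well, both of other cells and of the epithelium itself. The 5 fibroblast markers summed to 980 CPM in RA and 76.0 CPM in butyrate Aqp8 cells, and the 5 macrophage markers to 18.7 and 227 CPM. The 5 epithelial markers, of the gate's own lineage, summed to 7961 and 6431 CPM, and the 5 colonocyte markers to 10055 and 10145 CPM. No marker of these lists was at 0 in either library. The part of this RNA in the result was not tested.

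The mt- members of Aqp8 cells went several ways. Of 13, 9 lay below 1 and 4 above, with 7 intervals below 1, 3 above and a median ratio of 0.956. With at most 10% mt- UMIs, 10 of 13 lay above 1, with a median of 1.13. The values that follow are again at the 25% limit. Mt-Co1 stood at 22808 CPM of all UMIs (RA) and 31606 (butyrate), with a ratio of 1.39, 1.37 to 1.40. Mt-Nd4l stood at 470 and 522 CPM (1.11, 1.05 to 1.18). Lowest were mt-Nd3, at 939 and 598 CPM (0.637, 0.607 to 0.668), and mt-Cytb, at 10294 and 7965 CPM (0.774, 0.763 to 0.784). Summed by complex, the mt- members had ratios of 0.901 (complex I), 0.774 (complex III), 1.08 (complex IV) and 1.07 (complex V). In complex IV the nuclear and the mt- sums therefore lay on opposite sides of 1 (0.793 and 1.08), although not each mt- subunit was higher. Mt-Co2 had 112272 UMIs (RA) and 112357 (butyrate), and mt-Co3 144756 and 133841, out of 4666312 and 4677558 UMIs in all. The side of the mt- sum depended on the mt- limit, as given above for all 13 members.

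Other genes of the pathway were read in the same Aqp8 cells from lists chosen with earlier results known. Of 53 further subunits of the chain, 50 lay below 1 and 29 were at least 20% lower, with a median of 0.796. Ndufa9, a subunit of complex I, was among the lowest (66.8 and 41.2 CPM, 0.616). Cytochrome c itself, Cycs, stood at 749 and 776 CPM (1.04), and Cox6a1 at 733 and 867 CPM (1.18). The tricarboxylic acid cycle, which feeds electrons to complexes I and II, had 14 of 14 genes below 1 and 11 at least 20% lower, with a median of 0.753. Idh2, the NADP-dependent isocitrate dehydrogenase, stood at 37.0 and 18.3 CPM (0.495), and fumarase, Fh1, at 33.9 and 19.6 CPM (0.577). Citrate synthase, Cs, stood at 346 and 305 CPM (0.882), and Suclg2 at 152 and 141 CPM (0.929, interval 0.826 to 1.04).

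Transport proteins of the inner and outer membrane and mitochondrial antioxidants had a median of 0.813, with 9 of 10 below 1. The phosphate carrier Slc25a3, which supplies complex V, stood at 702 and 478 CPM (0.681), and Txn2 at 93.9 and 71.4 CPM (0.760). At the upper end of that list stood the antioxidant Prdx3 (34.4 and 29.98 CPM, 0.871) and the carrier Ucp2 (146 and 156 CPM, 1.07). Glycolysis, which runs in the cytosol, had 10 of 13 genes below 1, 1 past the limit in each direction and a median of 0.900. Its members ran from Pfkl (68.6 and 48.0 CPM, 0.700) and Pgam1 (162 and 131 CPM, 0.807) to Gapdh (738 and 773 CPM, 1.05) and Eno1 (75.9 and 98.8 CPM, 1.30). With at most 10% mt- UMIs the glycolysis median was 0.727, close to the 0.738 of the nuclear members, so the gap between these lists depended on the limit.

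Genes that build or regulate the chain had medians nearer to 1. The counts are to be read against all genes tested in Aqp8 cells. Of these, 51.2% lay below 1, 23.6% were at least 20% lower and 19.0% at least 25% higher. Of 28 assembly factors with enough UMIs, 19 lay below 1 and 8 were at least 20% lower, with a median of 0.913. Ndufaf3 (21.3 and 12.2 CPM, 0.574) and Tmem126b (13.4 and 8.38 CPM, 0.625), both needed for complex I, were lowest, and Sdhaf1 (15.7 and 19.3 CPM, 1.23) and Sco1 (18.5 and 24.1 CPM, 1.31) highest. Of 8 genes that copy, transcribe or process mitochondrial DNA and RNA, 5 lay below 1, with a median of 0.910. They ran from Polg2 (29.9 and 24.4 CPM, 0.817) and Lrpprc (19.7 and 16.3 CPM, 0.824) to Tfb2m (15.9 and 18.5 CPM, 1.16) and Tfam (20.2 and 26.4 CPM, 1.31), and each of these 4 intervals included 1. The 8 regulators of mitochondrial biogenesis had a median of 1.05, with 2 past the limit in each direction. Pprc1 (9.87 and 6.35 CPM, 0.644) and Gabpa (19.5 and 13.7 CPM, 0.704) were lowest, and Gabpb1 (25.3 and 31.8 CPM) and Nrf1 (47.8 and 62.5 CPM, 1.31) highest. With at most 10% mt- UMIs the medians were 0.859 for assembly factors, 1.09 for mitochondrial DNA expression and 1.18 for the regulators. That of all genes tested was 1.03. The side of 1 on which the mitochondrial DNA expression median lay thus depended on the limit.

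Of 8 isoforms and related genes of the chain, 3 reached 50 UMIs in Aqp8 cells. Cox7a1, known from heart and muscle, stood at 117 CPM in RA and 96.6 CPM in butyrate Aqp8 cells (0.822), against 8.39 and 3.78 CPM in Cd79a cells. The other 2 were Cox7a2l (319 and 245 CPM, 0.767) and Atpif1, an inhibitor of complex V (776 and 678 CPM, 0.874).

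Goblet cells, gated by Muc2, had nuclear members on both sides of 1. Here 17 of 23 nuclear members lay below 1, with 0 at least 25% higher and 0 at least 20% lower, against 23.2% of the 8754 genes tested that were at least 20% lower and 11.5% higher. Ndufa4 was lowest (672 and 562 CPM, 0.837), then Uqcrh (1022 and 902 CPM, 0.882), and Uqcrq (325 and 394 CPM) and Sdhd (145 and 176 CPM) were highest, both at 1.21. All 4 intervals excluded 1. The mt- members were lower in the butyrate library in 12 of 13 cases. Mt-Atp8 (316 and 205 CPM, 0.650) and mt-Co3 (14529 and 9624 CPM, 0.662) were lowest, and mt-Co1 (10316 and 9771 CPM, 0.947) and mt-Nd4l (260 and 290 CPM, 1.12) highest. Of all genes tested in Muc2 cells, 58.6% lay below 1. With at most 10% mt- UMIs, 12 of 23 nuclear members lay below 1, against 58.0% of all genes tested. Only Uqcrq was then at least 25% higher (1.30), against 14.1% of all genes tested, and 0 were at least 20% lower, against 23.8%. Of the mt- members 10 of 13 then lay below 1, with mt-Nd4l highest (1.26). Markers differed between these gates too: goblet markers summed to 23793 and 40470 CPM, red cell markers to 14.7 and 2307 CPM, plasma cell markers to 803 and 219 CPM (Mzb1 at 0 in the butyrate gate), and fibroblast markers to 266 and 32.8 CPM. Their part was not tested, nor was the difference between the Aqp8 and Muc2 ratios.

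Cd79a cells hold B cells and plasma cells, and their nuclear members differed little between the libraries. Of 23, 16 lay below 1 and only Ndufa1 was at least 20% lower (180 and 132 CPM, 0.733, 0.701 to 0.766). Of the 13783 genes tested, 57.0% lay below 1, 26.0% were at least 20% lower and 9.52% at least 25% higher. Ndufb9 came next (171 and 141 CPM, 0.825), and Ndufb3 (81.1 and 90.4 CPM, 1.11) and Atp5j (175 and 196 CPM, 1.12) were highest. All 13 mt- members lay below 1, from mt-Atp8 (189 and 116 CPM, 0.615) and mt-Nd3 (532 and 345 CPM, 0.649) to mt-Co1 (5301 and 5031 CPM, 0.949) and mt-Nd4l (155 and 152 CPM, 0.986). With at most 10% mt- UMIs, 11 of 13 did, and the intervals of the other 2 lay above 1, with mt-Nd4l highest (1.06). Of the nuclear members 10 of 23 then lay below 1, against 56.3% of all genes tested, and Ndufa1 stayed lowest (0.755). The sum of the nuclear members turned from 0.967 to 1.09 in the 2782 RA and 4091 butyrate Cd79a cells that passed no other main gate (4676 and 5091 CPM), and to 1.02 at the 10% limit. In the cells that passed no other main gate, Ndufa1 stood at 121 and 105 CPM. Ndufb9 stood at 100 and 111 CPM there, so it was then higher in the butyrate library. Marker RNA differed between the gates, each list named here with 5 of 5 markers above 0 in both libraries. Plasma cell markers, of the gate's own lineage, summed to 6334 and 1945 CPM. Of other cells, colonocyte markers summed to 449 and 226 CPM and adipocyte markers to 285 and 4.04 CPM. Goblet (371 and 508 CPM), T cell (163 and 195 CPM) and macrophage markers (62.2 and 75.2 CPM) were higher in the butyrate gate. Their part in the result was not tested.

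The other lists in Cd79a cells were mostly near 1 in their medians, and the counts below 1 are to be read against the 57.0% of all genes tested. Further subunits had a median of 0.964 (33 of 53, or 62.3%, below 1), from Uqcr11 (139 and 107 CPM, 0.769) and Sdhc (33.5 and 27.6 CPM, 0.824) to Ndufc2 (119 and 138 CPM, 1.16) and Atp5g2 (266 and 326 CPM, 1.22). The tricarboxylic acid cycle had a median of 0.941 (8 of 14, or 57.1%, below 1), from Idh2 (22.9 and 19.0 CPM, 0.830) and Idh3a (36.03 and 31.3 CPM, 0.868) to Sucla2 (36.8 and 42.9 CPM, 1.17) and Fh1 (22.6 and 28.8 CPM, 1.27). Fh1 thus lay above 1 here and below 1 in Aqp8 cells, a difference that was not tested. Glycolysis had a median of 1.06, with a wide spread from Hk2 (61.6 and 29.0 CPM, 0.470) and Hk1 (21.2 and 16.9 CPM, 0.800) to Gapdh (277 and 347 CPM) and Eno1 (27.2 and 41.0 CPM, 1.51). Carriers and antioxidants had a median of 1.09 with 9 of 10 above 1, from Sod2 (80.7 and 74.5 CPM, 0.922) and Slc25a3 (332 and 337 CPM, 1.02) to Txn2 (54.1 and 63.3 CPM, 1.17) and the ADP/ATP carrier Slc25a4 (67.8 and 88.6 CPM, 1.31).

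Assembly factors in Cd79a cells had a median of 1.04 (22 of 35 above 1). The complex II factor Sdhaf1 was highest (41.0 and 63.5 CPM, 1.55, 1.43 to 1.68), followed by Ndufaf1 (7.20 and 8.71 CPM, 1.21), and Lyrm7 (1.14 and 0.961 CPM) and Tmem126b (8.88 and 7.53 CPM) had intervals that included 1. Genes of mitochondrial DNA expression had a median of 1.05, from Twnk (9.08 and 7.56 CPM, 0.832) and Polg2 (25.01 and 22.0 CPM, 0.881) to Slirp (36.4 and 41.8 CPM, 1.15) and Ssbp1 (62.0 and 71.7 CPM, 1.16). Of the 8 biogenesis regulators, 3 were at least 20% lower, among them Ppargc1b (16.7 and 11.7 CPM, 0.703) and Esrra (17.7 and 13.3 CPM, 0.7505), and Pprc1 (25.2 and 26.5 CPM) and Gabpb1 (55.5 and 58.5 CPM) were both at 1.05. Of the isoforms, Cox7a1 stood at 0.451 and Atpif1 at 0.860 (167 and 144 CPM), with Cox6b2 (1.74 and 1.51 CPM, 0.867) and Cox7a2l (361 and 381 CPM, 1.06) above them.

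In the T lineage gate Ndufb3 was again among the 2 highest nuclear ratios, below Ndufa4. In Cd3e cells 19 of 23 nuclear members lay below 1 and only Uqcrc1 was at least 20% lower (68.7 and 48.6 CPM, 0.708, 0.618 to 0.811), while of the 11198 genes tested 60.3% lay below 1, 23.5% were at least 20% lower and 7.97% at least 25% higher. Ndufa1 was next (189 and 152 CPM, 0.800), and Ndufb3 (103 and 111 CPM, 1.08) and Ndufa4 (455 and 534 CPM, 1.17) were highest. Mt- members lay below 1 in 13 of 13 cases, from mt-Atp8 (179 and 98.3 CPM, 0.550) and mt-Co3 (9387 and 5397 CPM, 0.575) to mt-Co1 (5576 and 4711 CPM, 0.845) and mt-Nd6 (54.9 and 47.6 CPM, 0.866). With at most 10% mt- UMIs, 11 of 13 did, and mt-Co1 was highest (1.10). Of the nuclear members 12 of 23 then lay below 1, against 59.2% of all genes tested. At least 20% lower were then 0 nuclear members, with Uqcrc1 lowest (0.826), against 20.3% of all genes tested. As in Cd79a cells, the nuclear sum turned, from 0.950 to 1.04 in the 529 RA and 1001 butyrate cells of this gate alone (5835 and 6089 CPM). T cell markers, of the gate's own lineage, summed to 2834 CPM (RA) and 3004 CPM (butyrate). Colonocyte markers summed to 429 CPM in the RA gate and 224 CPM in the butyrate gate. Adipocyte markers summed to 472 and 2.97 CPM, with Plin1 and Car3 at 0 in the butyrate gate. Plasma cell markers summed to 532 and 219 CPM and fibroblast markers to 494 and 64.0 CPM. Red cell (1987 and 3292.5 CPM) and B cell markers (156 and 195 CPM) were higher in the butyrate gate. Their part was not tested.

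C1q cells were few, and their counts were the smallest, with 85 UMIs over both libraries for Uqcrc1, the nuclear member with the fewest. Of the 23 nuclear members, 6 were at least 20% lower and 0 higher, which as 26.1% lay near the 24.1% of the 5394 genes tested that were at least 20% lower, and 14.6% were higher. Ndufb9 was lowest (190 and 118 CPM, 0.622, 0.489 to 0.789), then Cox7b (195 and 126 CPM, 0.647, 0.512 to 0.816), and Ndufa6 (153 and 154 CPM, 1.01) and Ndufa4 (362 and 369 CPM, 1.02) were highest. The mt- members ran from mt-Nd3 (520 and 317 CPM, 0.611) and mt-Co3 (8367 and 5181 CPM, 0.619) to mt-Co1 (4569 and 4483 CPM, 0.981) and mt-Nd4l (141 and 151 CPM, 1.07). At the 10% limit, which removed 10 RA and 6 butyrate cells, the nuclear sum moved from 0.870 to 0.982 and 1 member was at least 20% lower. At the 25% limit 21 of 23 nuclear members lay below 1, 7 of them with the interval below 1, against 56.7% of all genes tested. At the 10% limit 12 of 23 lay below 1, against 55.9% of all genes tested. Red cell markers summed to 16.5 CPM in the RA gate (Hba-a2 at 0) and 2502 CPM in the butyrate gate, plasma cell markers to 1197 and 122 CPM (Mzb1 and Derl3 at 0 in the latter), fibroblast markers to 52.6 and 432 CPM, and adipocyte markers to 357 and 163 CPM, with 3 and 2 of 5 above 0. Their part was not tested.

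Col1a2 cells had the lowest nuclear sum. Of 23 nuclear members, 13 lay below 1 and only Ndufa2 was at least 20% lower (162 and 125 CPM, 0.771, 0.687 to 0.865), and 0 were higher by this fold. Of the 11603 genes tested, 53.6% lay below 1 (56.5% of the nuclear members did), 18.3% were at least 20% lower and 12.5% at least 25% higher. Sdha was next (77.0 and 65.2 CPM, 0.846), and Ndufa4 (301 and 334 CPM, 1.11) and Sdhb (42.7 and 53.2 CPM, interval of the ratio 1.03 to 1.51) were highest. All 13 mt- members lay below 1, from mt-Atp8 (186 and 99.6 CPM, 0.536) and mt-Nd3 (391 and 225 CPM, 0.577) to mt-Co1 (4408 and 3764 CPM, 0.854) and mt-Nd4l (167 and 157 CPM, 0.940). With at most 10% mt- UMIs, 12 of 13 did, and mt-Nd4l stood at 1.03. Colonocyte markers summed to 429 CPM in the RA gate and 86.9 CPM in the butyrate gate, goblet markers to 755 and 215 CPM, mesothelial markers to 80.1 and 6.30 CPM, and red cell markers to 4247 and 1813 CPM, with 0 of these markers at 0. Their part was not tested.

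Epithelial and B lineage cells differed far more from each other than the libraries did. Aqp8 and Cd79a cells that passed no other main gate were compared within each library (260 and 2782 RA cells, 441 and 4091 butyrate cells), which is a comparison of cells within 1 mouse. At least 25% higher in Aqp8 than in Cd79a cells were 22 of 23 nuclear members in both libraries, against 33.0% of the genes tested (RA) and 32.6% (butyrate). The median Aqp8/Cd79a ratio of the nuclear members was 4.20 (RA) and 3.29 (butyrate), and that of all genes tested 0.682 and 0.651. Ndufb9 had the highest ratio in both, 10.4 in the RA library (100 CPM in Cd79a cells, 1047 in Aqp8 cells) and 7.66 in the butyrate library (111 and 852 CPM). Apart from Ndufa4, Sdha had the lowest ratio in both, at 1.58 (96.4 and 153 CPM) and 1.39 (85.7 and 119 CPM).

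Ndufa4 was the exception among the nuclear members. It stood at 387 CPM in Cd79a cells and 271 CPM in Aqp8 cells of the RA library, a ratio of 0.699 (0.641 to 0.760), and at 428 and 168 CPM in the butyrate library, a ratio of 0.391 (0.355 to 0.431). Among gated classes with all barcodes, its level was 290 and 228 CPM in Aqp8 cells, but 672 and 562 CPM in Muc2 cells, 543 and 496 CPM in Epcam cells, 454 and 469 CPM in Cd79a cells, 455 and 534 CPM in Cd3e cells, 362 and 369 CPM in C1q cells and 301 and 334 CPM in Col1a2 cells. Aqp8 cells were thus lowest for Ndufa4 in both libraries, although their interval overlapped that of Col1a2 cells in the RA library, while they were highest for the sum of the nuclear members. Its ratio between the libraries was among the 2 highest in Cd3e, C1q and Col1a2 cells and the lowest in Muc2 cells.

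All 13 mt- members were at least 25% higher in Aqp8 than in Cd79a cells, with medians of 3.62 (RA) and 4.08 (butyrate). Mt-Co1 had the highest ratio in both libraries, 6.66 (3675 and 24490 CPM of all UMIs) and 8.75 (3894 and 34068 CPM). The lowest was mt-Nd2 in the RA library (1.70) and mt-Nd3 in the butyrate library (1.94). Members of the same chromosome thus differed several-fold in how strongly they separated the 2 cell classes.

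**Figure D3:**
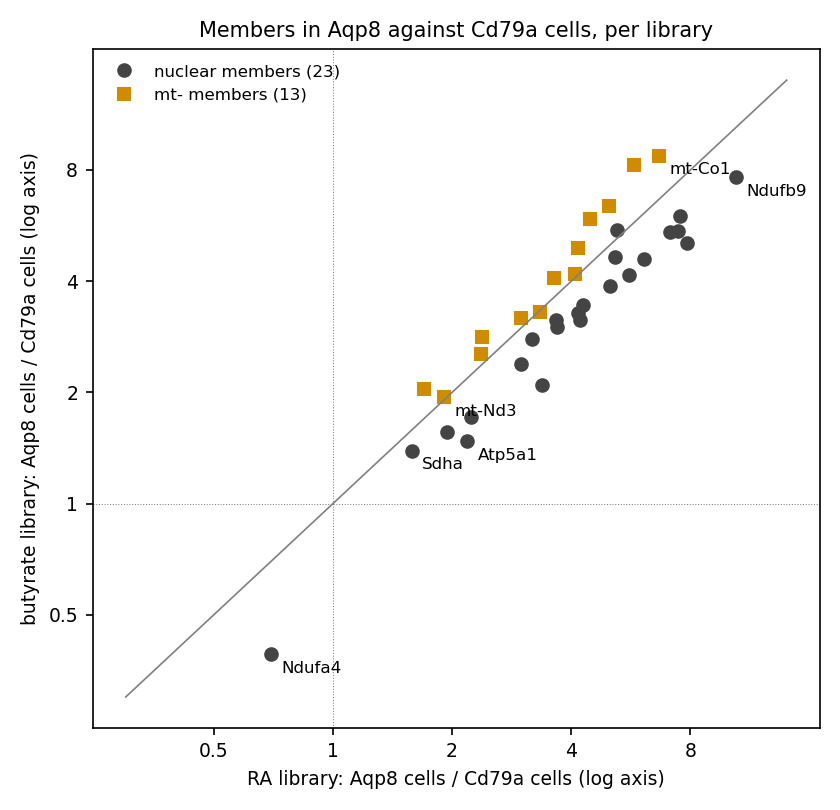
Aqp8/Cd79a ratio of each member (log axis) in the RA and the butyrate library, from cells that passed no other main gate. All 13 mt- members and 22 of the 23 nuclear members are at least 25% higher in Aqp8 cells in both libraries, and Ndufa4 lies below 1 in both (0.699 and 0.391).

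The make-up of the mt- UMIs is a separate measure from their total, on which the limit acts, although the limit still chooses the cells. Mt-Co1 took a larger share of the mt- UMIs in the butyrate library in all 7 classes, with ratios of shares between 1.19 (Col1a2) and 1.34 (Aqp8). In Aqp8 cells its share was 14.9% (RA) and 19.9% (butyrate), in Epcam cells 12.8% and 16.6%, and in Cd79a cells 11.2% and 13.7%. Mt-Nd4l was also higher in all 7 classes (1.07 to 1.44), but its shares were below 1% of mt- UMIs throughout, such as 0.326% and 0.414% in Cd79a cells. For both genes the counting interval lay above 1 in all 7 classes.

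Other mt- members took smaller shares in the butyrate library. Mt-Nd3 had ratios of shares between 0.615 (Aqp8, 0.613% and 0.377%) and 0.844 (Muc2, 0.976% and 0.823%). Mt-Co3 lay between 0.828 (Cd3e, 20.4% and 16.9%) and 0.891 (Aqp8, 20.2% and 18.04%). Mt-Nd1 lay between 0.779 (Aqp8) and 0.973 (Cd3e), and the intervals of these 3 genes lay below 1 in all 7 classes. Mt-Atp8 lay between 0.744 and 0.873, with the interval below 1 in 6 classes and including 1 in C1q cells. Mt-Cytb separated the classes more: its share was 6.72% and 5.02% in Aqp8 cells (0.747) but 8.47% and 8.38% in Col1a2 cells (0.990). Mt-Atp6 held a near constant share, with ratios from 0.998 to 1.04, and made up 30.1% and 31.1% of mt- UMIs in Aqp8 cells. The classes of a library share its preparation and sequencing, so the 7 classes are not 7 separate observations.

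At the 10% limit the picture was close for mt-Co1 (1.17 to 1.41), mt-Co3 (0.797 to 0.900) and mt-Nd3 (0.759 to 0.840), each with its interval on the same side of 1 in all 7 classes. Mt-Atp8 then ranged from 0.7497 to 1.08, so its direction depended on the limit. In Aqp8 cells the intervals of mt-Nd4l (0.938 to 1.35) and mt-Nd1 (0.917 to 1.01) then included 1, while in the other 6 classes they stayed on the same side.

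**Figure D4:**
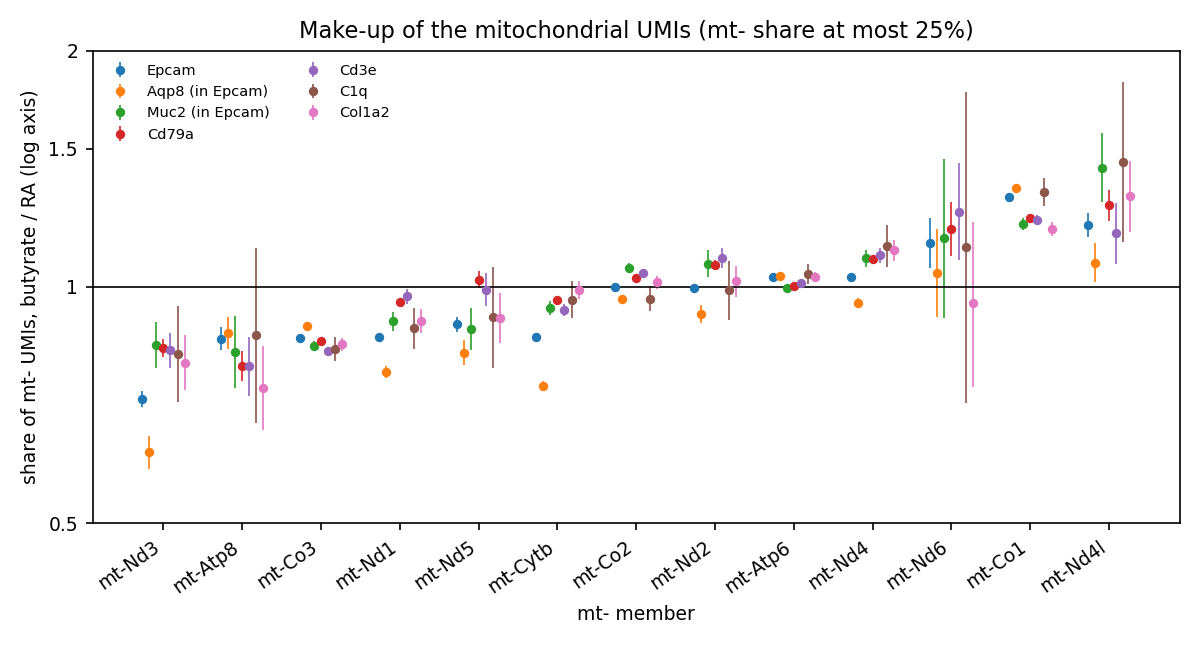
Ratio of each mt- member's share of the mt- UMIs (butyrate/RA, log axis) in the 7 cell classes, with 95% counting intervals. Mt-Co1 lies above 1 in all classes (1.19 to 1.34) and mt-Nd3 below 1 in all (0.615 to 0.844).

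The nuclear level was also read over ranges of the barcodes' mt- share, with the UMIs of all barcodes in a range pooled. In Epcam cells the summed nuclear level was 6698 CPM (RA) and 6449 CPM (butyrate) in barcodes with under 2.5% mt- UMIs, 7901 and 10036 CPM between 2.5% and 5%, and 15223 and 15911 CPM between 5% and 10%. The range from 2.5% to 5%, with 362 RA and 355 butyrate cells, had the widest gap between the libraries, with butyrate above RA. Beyond 10% the level was 15257 and 13372 CPM between 10% and 25%, and 14841 and 13364 CPM above 25%. Of Epcam cells with at most 10% mt- UMIs, 66.5% (RA) and 73.3% (butyrate) also passed another main gate, against 53.1% and 55.5% of those with at most 25%, and the part of such barcodes was not tested. Aqp8 cells had at least 20 cells only in the ranges from 5% upwards, where the level was 19737 and 15259 CPM between 5% and 10% (35 and 57 cells), 16464 and 13794 CPM between 10% and 25% (329 and 515 cells), and 16105 and 13851 CPM above 25% (1047 and 955 cells). The butyrate level of Aqp8 cells lay below the RA level in each of these 3 ranges.

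In lymphocytes the order of the libraries depended on the mt- share. Cd3e cells stood at 5754 CPM (RA) and 6040 CPM (butyrate) under 2.5%, at 6185 and 7246 CPM between 2.5% and 5%, at 9051 and 6777 CPM between 5% and 10%, and at 10382 and 6488 CPM between 10% and 25%. The butyrate value was thus above the RA value in the ranges under 5% and below it in those above 5%. Cd79a cells showed the same change of order: 4978 and 5232 CPM under 2.5%, 4918 and 5664 CPM between 2.5% and 5%, 8432 and 7440 CPM between 5% and 10%, and 9126 and 6904 CPM between 10% and 25%. Most lymphocytes lay under 5%, with 613 of 743 RA and 1190 of 1355 butyrate Cd3e cells. In each library these ranges pool cells of 1 mouse, and the differences between them were not tested.

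**Figure D5:**
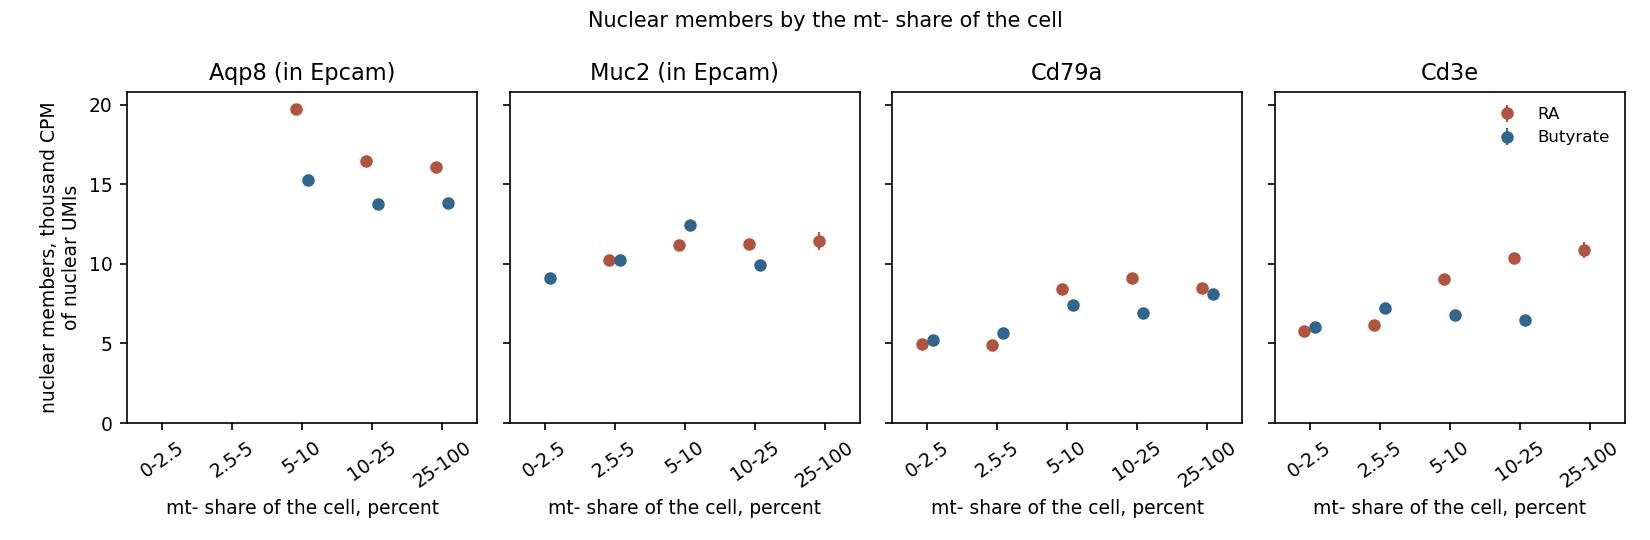
Summed nuclear level (CPM of nuclear UMIs) by range of the barcode's mt- share, for both libraries, with 95% counting intervals, in ranges of at least 20 cells. In Aqp8 cells the butyrate points lie below the RA points in each range shown, and in Cd79a and Cd3e cells the order of the libraries changes at a share of 5%.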

How the data were processed

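Single-cell RNA-seq of whole intestine from 2 mice was read from the deposited tables of raw UMI counts per gene and barcode, 1 table per library. The count tables were made with Cell Ranger 7.1.0 per the file headers, whereas the submitters' processing notes name Cell Ranger 6.0.1, Seurat 4.0.3 and 4.0.4 and mm10. Whether intronic reads were counted is not given in the sources used here. Of 31253 identifiers, 31107 were found in GENCODE M21.

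Barcodes with at least 500 UMIs and 250 genes were gated by marker UMIs, with at most 25% and again at most 10% mt- UMIs. UMIs were summed per gate and library. Nuclear genes were scaled to the UMIs of all genes without the prefix mt-, and mt- genes to all UMIs. Levels carry exact Poisson and ratios exact conditional binomial 95% intervals. Genes with at least 50 UMIs over both libraries entered the shares of genes at least 25% higher or 20% lower. Medians of butyrate/RA ratios over gene lists and over all genes tested used 0.5 added to each sum. Medians of the mt- members' ratios and of the Aqp8/Cd79a ratios had nothing added. Symbols with 2 identifiers (2 in the lists) were summed. In each complex all members were named in Epcam cells, and in the other gates the 2 highest and 2 lowest nuclear and mt- ratios. Of the other lists, the same was done in Aqp8 and Cd79a cells. In 1 of these lists a gene that the rule names is not reported here. Ndufa4 and the members of the class comparison and of the mt- make-up were also named after their values were seen. The members, gates and lists were chosen with earlier results of these data known. Scripts used Python 3.11.15, numpy 2.4.6, scipy 1.17.1 and pandas 2.3.3, and the ratios were tested on simulated data. The alternatives are given in the closing section.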

Additional observations from a re-analysis of the deposited data

Results flagged for a closer look

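The summed ratio of the 13 mt- members between the libraries lay above 1 in Aqp8 cells (1.04) and below 1 in the other 6 gates: 0.887 in Epcam cells, 0.787 in Muc2 cells, 0.776 in Cd79a cells, 0.695 in Cd3e cells, 0.743 in C1q cells and 0.720 in Col1a2 cells. What singled this out is that 1 gate went the opposite way, and the difference between the gates was not tested. By single members, 9 of 13 lay below 1 in Aqp8 cells, and mt-Co1 was highest (1.39). The Epcam gate includes the Aqp8 and Muc2 cells. Without a limit on mt- UMIs the ratio in Aqp8 cells was 0.929, on the same side of 1 as the other gates.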

How the results depend on the processing

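The summed nuclear ratio of Aqp8 cells stayed below 1 under all 8 alternatives (0.725 to 0.836), as did those of Epcam, Muc2, C1q and Col1a2 cells. The nuclear ratio went above 1 in 4 of 9 alternatives in Cd79a cells and in 3 of 8 in Cd3e cells. The mt- ratio of Aqp8 cells went below 1 without a mt- limit, and that of Epcam cells above 1 as a mean over cells; the mt- ratios of the other 5 gates stayed below 1. Values that moved beyond the counting interval or crossed 1 follow by setting. With at most 10% mt- UMIs, the nuclear ratio was 0.975 (Epcam), 0.725 (Aqp8), 1.02 (Cd79a), 1.02 (Cd3e) and 0.982 (C1q), and the mt- ratio was 1.11 (Aqp8), 0.851 (Muc2), 0.835 (Cd79a), 0.850 (Cd3e), 0.845 (C1q) and 0.780 (Col1a2). Without a mt- limit, the nuclear ratio was 0.906 (Epcam), 0.836 (Aqp8), 0.959 (Cd79a) and 0.933 (Cd3e), and the mt- ratio was 0.789 (Epcam), 0.929 (Aqp8), 0.705 (Muc2), 0.700 (Cd79a), 0.594 (Cd3e), 0.853 (C1q) and 0.701 (Col1a2). With barcodes of 1 main gate only, the nuclear ratio was 0.959 (Epcam), 0.835 (Aqp8), 1.09 (Cd79a), 1.04 (Cd3e) and 0.941 (C1q), and the mt- ratio was 0.978 (Epcam), 1.06 (Aqp8), 0.838 (Muc2), 0.839 (Cd79a), 0.783 (Cd3e), 0.655 (C1q) and 0.834 (Col1a2). On the other scale (nuclear members over all UMIs, mt- members over nuclear UMIs), the nuclear ratio was 0.933 (Epcam), 0.999 (Muc2), 0.978 (Cd79a) and 0.964 (Cd3e), and the mt- ratio was 0.877 (Epcam), 1.04 (Aqp8), 0.773 (Muc2), 0.767 (Cd79a), 0.685 (Cd3e) and 0.712 (Col1a2). With ribosomal protein and immunoglobulin genes left out of the total, the nuclear ratio was 0.907 (Epcam), 0.791 (Aqp8), 0.939 (Muc2) and 0.982 (Cd3e), and the mt- ratio was 0.876 (Epcam), 1.02 (Aqp8), 0.759 (Muc2), 0.780 (Cd79a) and 0.720 (Cd3e). As a mean of each cell's own share, the nuclear ratio was 0.852 (Muc2), 1.02 (Cd79a), 0.984 (Cd3e) and 0.985 (C1q), and the mt- ratio was 1.01 (Epcam), 1.02 (Aqp8), 0.753 (Muc2), 0.864 (Cd79a), 0.766 (Cd3e), 0.769 (C1q) and 0.741 (Col1a2). With doubled marker thresholds, the nuclear ratio was 0.946 (Epcam), 1.03 (Cd79a), 1.02 (Cd3e) and 0.795 (C1q), and the mt- ratio was 0.941 (Epcam), 1.05 (Aqp8), 0.782 (Muc2), 0.793 (Cd79a), 0.717 (Cd3e), 0.814 (C1q) and 0.728 (Col1a2). Without barcodes of at least 20 Jchain UMIs, the nuclear ratio was 0.941 (Cd79a), and the mt- ratio was 0.768 (Cd79a). A common floor of 2313 UMIs in both libraries moved 0 of the 14 sums beyond their intervals. The number of nuclear members at least 20% lower in Aqp8 cells, 13 of 23, was 3 without a mt- limit and 6 with barcodes of 1 main gate only, a count added after the data were seen. With a fold of 1.5, between 7.81% and 16.9% of genes were lower and between 2.68% and 7.32% higher in the 7 gates. The cause of these shifts was not tested. No paired analysis was possible because each group has 1 library. Depth limits C1q cells most, where Uqcrc1 rests on 85 UMIs over both libraries.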
